A study of Saccharomyces cerevisiae with 66 samples.

Results

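The recombination enhancer (RE) region lies on the left arm of chromosome III, between KAR4 and SPB1, and was described here by 3 nucleosome-depleted regions (NDRs) of the 4828 in the deposited tables. They were chosen by position, with earlier results of these data known: the NDR at the start of KAR4, the NDR over the RE and the NDR at the start of SPB1, which also lies nearest to RDT1. They are called the KAR4 NDR, the RE NDR and the SPB1 NDR below. Their values came from 21 tables, each a comparison of 2 libraries of a targeted strain with 2 libraries of a control strain. The assay was MTAC. A fusion of LacI with M.CviPI, a methyltransferase of GpC sites, binds LacO repeats placed at a chosen locus, the viewpoint (VP), and methylates DNA that comes near it. DNA methylated in vivo is then recovered by immunoprecipitation (MeDIP) and sequenced. A higher read level at an NDR in the targeted strain than in the control strain, which has no LacO, was the measure of contact with the VP.

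The strains that bear on the RE carried 256 copies of LacO at TAF2, next to the mating locus MAT on the right arm of chromosome III. Targeted cells were yLB121a-MATa-sw (MATa) and yLB121-alpha-MAT-alpha-sw (MATα), both TAF2::256XLacO::HIS3. Their controls were yLB121a-sw and yLB121-alpha-sw. All 4 strains carried GAL10pr::GAL10pr-HO::URA3, so that galactose induces the HO endonuclease and mating type switching, while glucose does not. In galactose the cultures were therefore a mixture of switched and unswitched cells, which limits them as a model of either mating type. β-estradiol at 2 nM, labelled as 2 h, induced the fusion in both sugars. By the study's methods glucose was added after the galactose pulse to stop HO, with time for repair before DNA was taken, so the sugar and the switch cannot be told apart. There β-estradiol was added during this whole process, so the methylation can date from any part of it and not only from switched cells. The background set was 17 tables of MATa strains without the HO construct, with LacO at CDC43, OLE1, PCL10, PUS2 or YBP2 on chromosome VII, LSM4, SHC1 or TRP2 on V, VHR1 on IX, or LHS1, MBR1 or MNR2 on XI. TRP2 was measured with and without methionine, and YBP2 also at 1 h with 4, 8, 16 or 256 copies. Their controls were yLB121a. All strains shared the alleles ade2-1, can1-100 and his3-11,15, together with leu2 mutations 3 and 112 in 1 allele, as well as trp1-1 and ura3-1. All also carried the fusion, ADH1::2xlexO-GAL1corepr-LacI-SV40NLS-M.CviPI, joined to its estradiol-dependent activator, ADH1pr-LexA-ERHBD-VP16AD::LEU2. By the study's methods the libraries of a group were biological replicates.

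The RE is a short regulatory element that directs the choice of donor during mating type switching. In MATa cells it favours the left arm, so that the HO break at MAT is repaired from HMLα. In MATα cells the repressor Matα2 acts with Mcm1 at the RE to keep it inactive, and HMRa on the right arm is used. In the active state the forkhead protein Fkh1 binds to the RE. KAR4 encodes a transcription factor needed for nuclear fusion during mating. SPB1 encodes a methyltransferase of ribosomal RNA in the assembly of the large ribosomal subunit. RDT1 is a very short annotated gene.

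In the reference R64, whose sequence is that of the build sacCer3 used for the files, KAR4 (YCL055W) spans chrIII:27929-28936 on the plus strand. The RE is annotated at chrIII:29108-29809. The replication origin ARS304 follows at chrIII:30200-30657, RDT1 (YCL054W-A) at chrIII:30910-30996 and SPB1 (YCL054W) at chrIII:31449-33974, both on the plus strand. The KAR4 NDR is 109 bases long, has its last base at chrIII:27887 and ends 42 bases before the coding start of KAR4. The RE NDR is 585 bases long with its last base at chrIII:29561, starts 41 bases after the coding end of KAR4 and shares 454 bases with the annotated RE. The SPB1 NDR is 195 bases long with its last base at chrIII:31392, starts 202 bases after RDT1 and ends 57 bases before SPB1. The RE NDR lies 174 kb from the midpoint of TAF2. Among the 1998 NDRs whose ends were at hand, including all of chromosome III, the median length was 180 bases and the RE NDR ranked 18 from the longest.

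The sequences are shown because the assay reads GC sites and because the RE carries sites of mating type regulators. All are from RefSeq, build R64, plus strand, 5′ to 3′, from NDR ends taken as counted from 1. Capitals in the KAR4 and SPB1 NDRs mark GC, the site of M.CviPI. Capitals in the stretch of the RE NDR, chrIII:29208-29507, mark CATGTAATT, a half-site of Matα2, and ATAAACA, a core recognised by forkhead proteins, which reads TGTTTAT where it lies on the minus strand.
KAR4 NDR: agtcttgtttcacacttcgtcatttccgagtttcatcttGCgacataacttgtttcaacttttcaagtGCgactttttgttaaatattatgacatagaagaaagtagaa
RE NDR, stretch: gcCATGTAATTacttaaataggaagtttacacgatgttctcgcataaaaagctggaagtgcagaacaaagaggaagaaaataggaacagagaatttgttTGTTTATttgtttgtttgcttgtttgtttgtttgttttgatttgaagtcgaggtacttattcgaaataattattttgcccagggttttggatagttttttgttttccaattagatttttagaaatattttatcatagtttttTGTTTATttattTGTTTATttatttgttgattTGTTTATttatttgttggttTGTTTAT
SPB1 NDR: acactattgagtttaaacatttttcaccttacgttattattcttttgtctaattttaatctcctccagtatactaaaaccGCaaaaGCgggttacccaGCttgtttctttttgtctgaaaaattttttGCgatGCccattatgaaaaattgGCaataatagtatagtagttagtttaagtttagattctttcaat

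The RE NDR held 13 GC sites, the SPB1 NDR 6 and the KAR4 NDR 2, against a median of 6 over the 1998 NDRs. Per 100 bases the RE NDR had 2.22 sites, the SPB1 NDR 3.08 and the KAR4 NDR 1.83, all under the median of 3.39. The RE NDR thus held more sites than 84.5% of these NDRs at a density below the median. Its G and C content was 26.7%, with a median of 34.4%. The core ATAAACA, searched on both strands, occurred 9 times in the RE NDR, 4 times on the plus and 5 times on the minus strand. At least 1 copy was present in 19.5% of the 4827 windows of 585 bases that begin at an NDR start, and at least 2 copies in 2.42%. The RE NDR was the only window with 9 copies, and the next held 4. CATGTAATT occurred once, at chrIII:29210-29218, and in 0.559% of these windows. The motifs do not overlap each other. The related core GTAAACA (11.1% of windows), the cell cycle box core CGCGAAA (6.01%) and the Mcm1 core of CC and GG with 6 bases between (57.5%) were not found in the letters of the RE NDR, and no motif of this list other than GC was found in the KAR4 or SPB1 NDRs. These matches describe the letters and are not measured sites.

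In glucose, methylation of the RE NDR was higher with LacO at MAT in MATa cells. The log2 fold change was 1.06 ± 0.24 (SE of the deposited fit, 2 libraries per group), a 2.09-fold difference, with an adjusted p of 0.00351 (normal test of the DESeq2 values, Benjamini-Hochberg adjustment over 4823 NDRs). It ranked 24 from the top of the table. Calls required an adjusted p under 0.05 together with a log2 fold change past 0.7 in size. By this rule 35 NDRs were called in MATa in glucose, all higher, which is 0.726% of those tested. The files hold no value per library. The level of each group was therefore worked out from the mean over the libraries and the fold change, and it has no error. At the RE NDR it was 1214 RPM (reads per 1000000 reads in NDRs) in the targeted MATa strain and 584 in its control.

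In MATα cells the same VP gave no call at the RE NDR. Its log2 fold change in glucose was 0.18 ± 0.30 (95% interval -0.41 to 0.76) with an adjusted p of 1.00 by the same test. Levels were 233 RPM in the targeted MATα strain and 197 in its control. By the same rule 13 NDRs were called in MATα in glucose, or 0.269%, all within 30 kb of TAF2. The difference at the RE NDR, MATa minus MATα, was 0.88 ± 0.38 (SE), with an unadjusted p of 0.0213 by a normal test on DESeq2 values. Over 4823 NDRs the adjusted p was 0.999. The difference between mating types was therefore not past the threshold, although only MATa passed it by itself. In this contrast 0.0207% of NDRs passed, which is 1 NDR next to the VP. At an unadjusted p under 0.05, 63 NDRs were higher and 12 lower in MATa, and the RE NDR ranked 32 by p.

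With switching induced, the RE NDR was called in neither mating type. In galactose its log2 fold change was 0.00 ± 0.29 in MATa (95% interval -0.57 to 0.56) and -0.06 ± 0.33 in MATα (-0.71 to 0.59). The share of NDRs called was 0.124% in MATa and 0.228% in MATα. Levels in MATa were 682 RPM in the targeted strain and 723 in the control, and the base mean of 229 was the highest of the RE NDR in the 21 tables. In MATα they were 183 in the targeted strain and 199 in the control.

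The change with galactose in MATa, galactose minus glucose, was -1.06 ± 0.38 at the RE NDR (95% interval -1.80 to -0.33). Its unadjusted p was 0.00455 and its adjusted p over 4823 NDRs was 0.457 (normal test on DESeq2 values). Over all NDRs 15 passed, all lower in galactose, or 0.311%, and the RE NDR ranked 48 by p. In MATα the change was -0.23 ± 0.45 with an adjusted p of 0.999, where 0.0207% of NDRs passed. In galactose the mating types differed by 0.05 ± 0.44 (MATa minus MATα, adjusted p 0.999), where again 0.0207% passed. The change of the mating type difference, glucose minus galactose, was 0.83 ± 0.58 at the RE NDR with an adjusted p of 0.999. There 0.145% of NDRs passed, and none of the 3 members did.

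**Figure D1:**
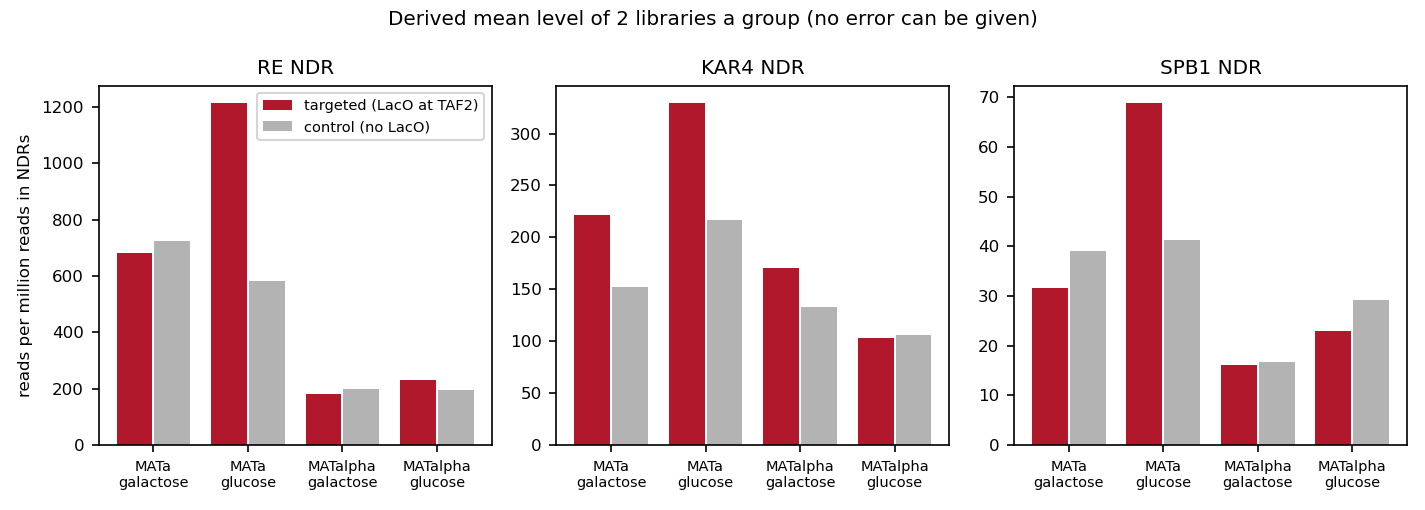
Mean levels of the RE, KAR4 and SPB1 NDRs in RPM (y axis, from 0, on a scale of its own in each panel), worked out for 2 targeted (red) and 2 control (grey) libraries of each mating type and sugar; no error can be given. At the RE NDR in MATa in glucose the targeted bar stands at 1214 and the control bar at 584, while the pairs are 682 and 723 in MATa in galactose, 183 and 199 in MATα in galactose, and 233 and 197 in MATα in glucose.

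Without LacO, the derived level of the RE NDR was higher in MATa than in MATα, which the fold change does not show. In glucose it was 584 RPM in MATa control cells and 197 in MATα control cells, a ratio of 2.97. It ranked 53 of 3170 NDRs with a base mean of at least 10 in both tables, where the median log2 ratio was 0.10. In galactose the ratio was 3.63, from 723 in MATa and 199 in MATα control cells, and ranked 58 of 3085 NDRs. Control cells of the background set, all MATa, had 329 to 343 RPM at the RE NDR in the 11 tables at 2 h of YBP2 to MNR2, 241 and 297 in those of TRP2 with and without methionine, and 497 to 528 at 1 h. The MATα controls were thus the lowest of all. These are levels of separately normalized tables with no error, so they were not tested. Mating type and differences between the libraries cannot be told apart in them.

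The KAR4 NDR was not called from TAF2, but its values were positive in both MATa tables. Its log2 fold change was 0.62 ± 0.27 in galactose (unadjusted p 0.0228 by the normal test on DESeq2 values) and 0.61 ± 0.31 in glucose (unadjusted p 0.0501). The adjusted p was 1.00 and 0.999 in these tables. In MATα it was 0.43 ± 0.34 in galactose and -0.10 ± 0.31 in glucose. Levels were 222 RPM in the targeted strain and 153 in the control in MATa in galactose, and 329 and 217 in glucose. In MATα they were 170 and 133 in galactose, and 103 and 106 in glucose. Galactose and glucose differed by 0.01 ± 0.41 in MATa at the KAR4 NDR, with a 95% interval of -0.80 to 0.82. The mating types differed there by 0.71 ± 0.44 in glucose, with an adjusted p of 0.999 in the same kind of test.

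The SPB1 NDR had few reads, with base means of 3.07 to 13.3 from TAF2, and was not called. In glucose its log2 fold change was 0.74 ± 0.38 in MATa and -0.42 ± 0.25 in MATα. The difference of 1.16 ± 0.45 (95% interval 0.28 to 2.04) ranked 17 of 4823 by p, before the RE NDR, with an unadjusted p of 0.0100 and an adjusted p of 0.999 (normal test on DESeq2 values). In galactose its values were -0.22 ± 0.27 in MATa and 0.02 ± 0.25 in MATα. Its change of the mating type difference was 1.40 ± 0.58, with an unadjusted p of 0.0157 and an adjusted p of 0.999. Levels in glucose were 68.8 RPM in the targeted MATa strain and 41.4 in its control, against 22.9 in the targeted MATα strain and 29.3 in its control. This NDR is also the nearest to RDT1, so the tables give RDT1 no value apart from that of SPB1.

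**Figure D2:**
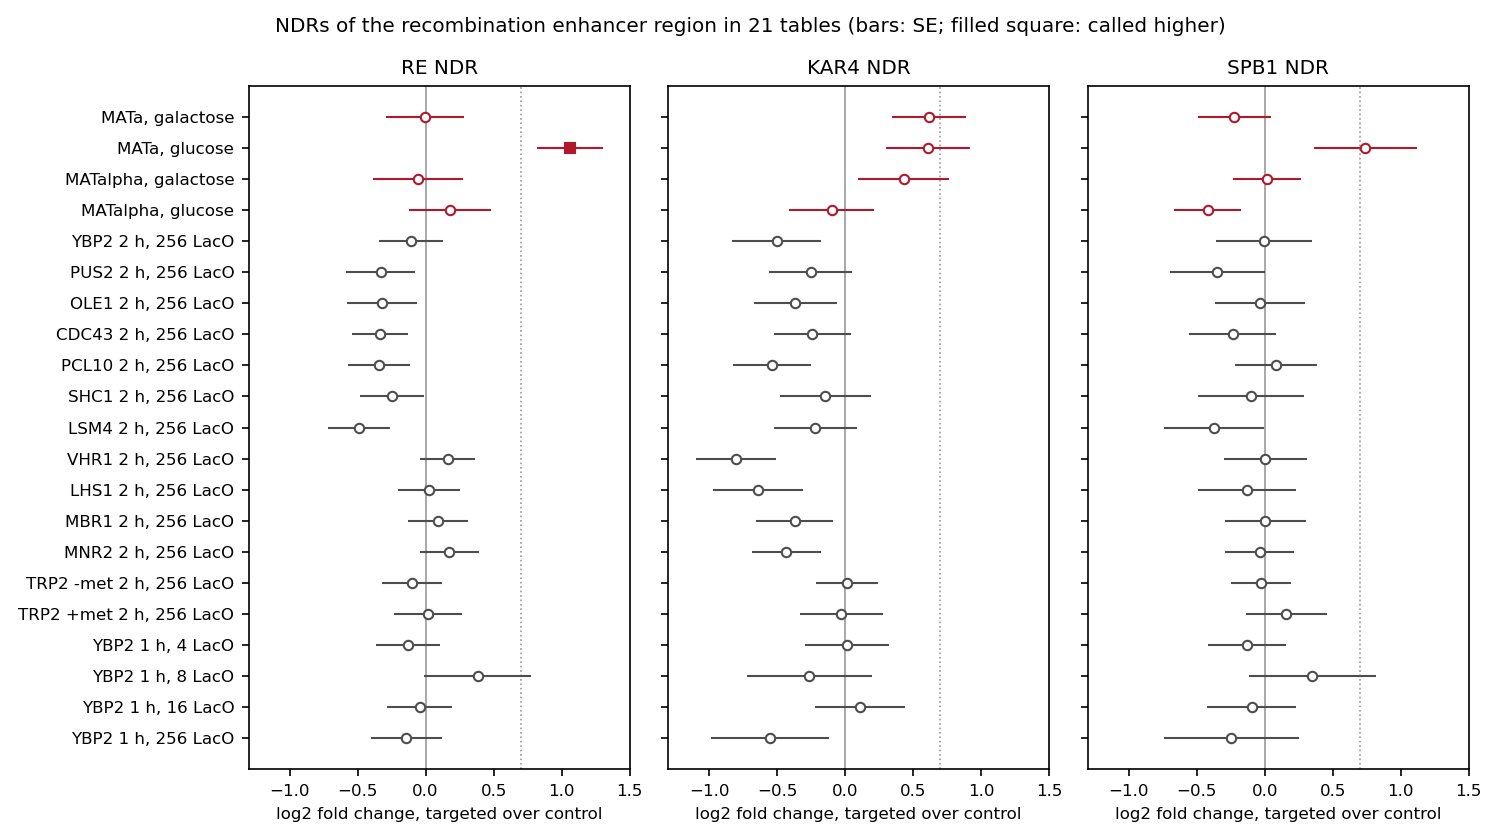
Log2 fold change, targeted over control (x axis), of the RE, KAR4 and SPB1 NDRs in 21 tables (rows), with bars of 1 SE; red marks the TAF2 viewpoint, the dotted line the 0.7 cutoff and a filled square a call. The RE NDR in MATa in glucose, at 1.06, is the only filled point of the 63.

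The RE NDR did not differ from its own neighbours past the threshold. In MATa in glucose it exceeded the KAR4 NDR by 0.45 ± 0.39 (95% interval -0.31 to 1.22), and the SPB1 NDR by 0.32 ± 0.45 (-0.55 to 1.20). The adjusted p was 1.00 for both over 4807 pairs of adjacent NDRs (normal test on DESeq2 values), of which 0.0624% passed. In the other tables both differences also missed the threshold, from -0.62 for RE minus KAR4 in MATa in galactose to 0.60 for RE minus SPB1 in MATα in glucose. The share of adjacent pairs that passed was 0.0623% in MATa in galactose, 0.0416% in MATα in galactose and 0% in MATα in glucose, where 24 pairs had an unadjusted p under 0.05.

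The NDRs around the RE NDR were mostly positive in MATa in glucose. Of the 17 other NDRs within 20 kb, 16 had a positive log2 fold change, with a median of 0.40 and a range of -0.07 to 0.74, and none was called by the normal test on DESeq2 values, with 3 at an unadjusted p under 0.05. Over all NDRs 48.8% were positive in MATa in glucose, 0.726% were called and the median was -0.01. In MATα in glucose 10 of these 17 were positive with a median of 0.01, in MATa in galactose 9 with a median of 0.04, and in MATα in galactose 8 with a median of -0.01. The only negative value in MATa in glucose was at the NDR between HMLALPHA1 and HMLALPHA2, the silent α genes 15.9 kb away (-0.07 ± 0.32, base mean 3.79). The reference also holds the α genes at MAT, so reads of this NDR may not be told apart from those of MAT. The highest values beside the members were 0.73 ± 0.35 at APA1, which encodes a phosphorylase of diadenosine tetraphosphate, and 0.65 ± 0.33 at the NDR beside MIC10 and PRD1, which encode a subunit of the mitochondrial contact site complex and a peptidase. A value of 0.05 ± 0.28 at the NDR between PBN1 and LRE1, 6.45 kb away, had a base mean of 2.53.

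**Figure D3:**
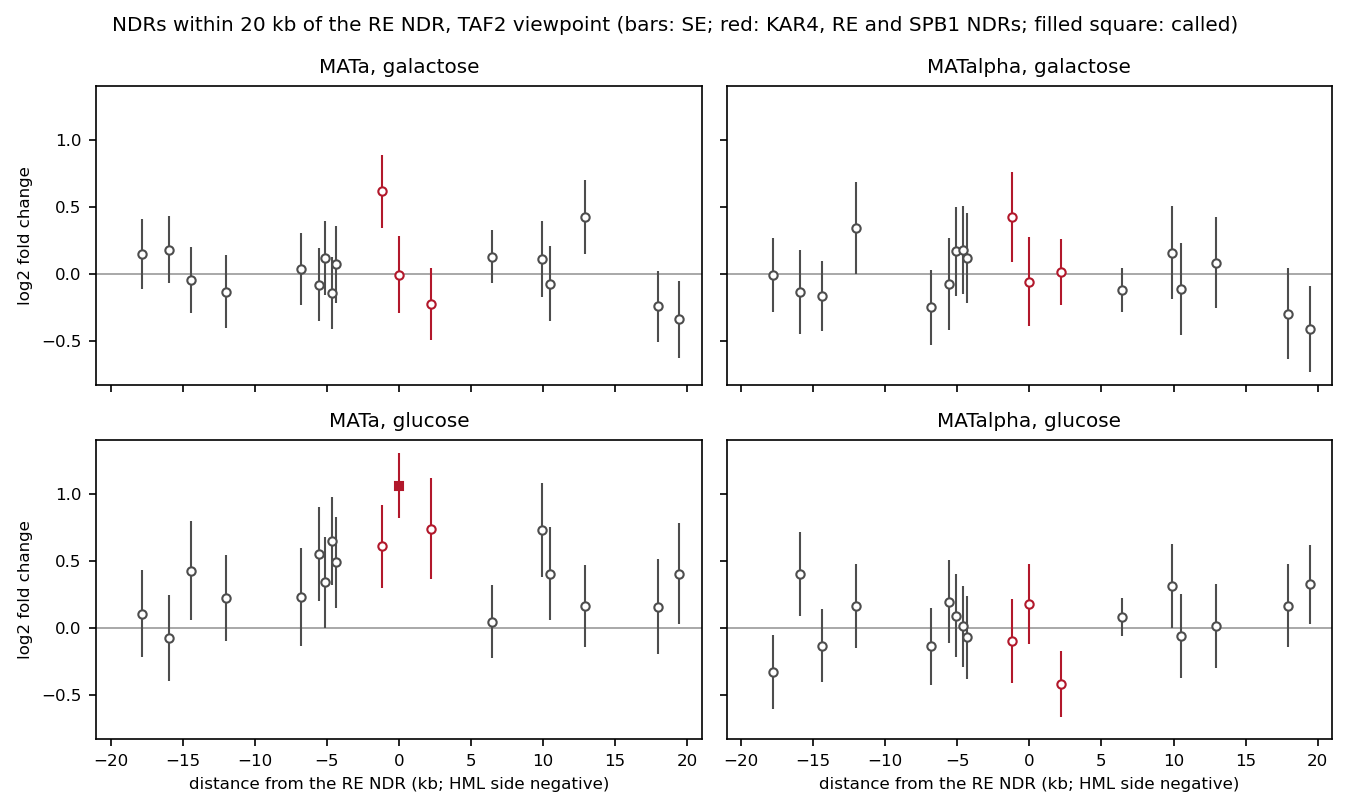
Log2 fold change (y axis, bars of 1 SE) of the NDRs within 20 kb of the RE NDR, by distance in kb (x axis, HML side negative), from TAF2 in galactose (top) and glucose (bottom), MATa on the left; red points are the KAR4, RE and SPB1 NDRs and the filled square is the called one. In MATa in glucose 17 of 18 points lie above 0, and in the other panels they scatter around 0.

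On the whole left arm, 39 of 44 NDRs were positive in MATa in glucose, with a median of 0.25, and 3 were called. Over all NDRs 48.8% were positive in that table and 0.726% were called. The RE NDR was the only called NDR of the arm outside the chromosome end, and the other called NDRs began 16 and 748 bases from it, at 0.81 ± 0.22 and 1.196 ± 0.24. The chromosome end NDR at 748 was the only one of the arm above the RE NDR. No NDR of the arm was called in the other 3 tables by this test. There 0.124% of all NDRs were called in MATa in galactose, 0.228% in MATα in galactose and 0.269% in MATα in glucose. In the same order, 3, 1 and 0 NDRs of the arm had an unadjusted p under 0.05. Medians of the arm were 0.08 in MATa in galactose, 0.07 in MATα in galactose and 0.08 in MATα in glucose. By distance from TAF2, in MATa in glucose, the left arm had 1 NDR at 60 to 90 kb (0.50), and its median was 0.22 at 90 to 120 kb from TAF2 (11 NDRs), 0.02 at 120 to 150 kb (10 NDRs), 0.55 at 150 to 180 kb, the bin that holds the RE NDR (15 NDRs, all positive), and 0.23 beyond (7 NDRs). In MATα in glucose the bin of the RE NDR had a median of 0.09 with 11 of 15 positive.

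**Figure D4:**
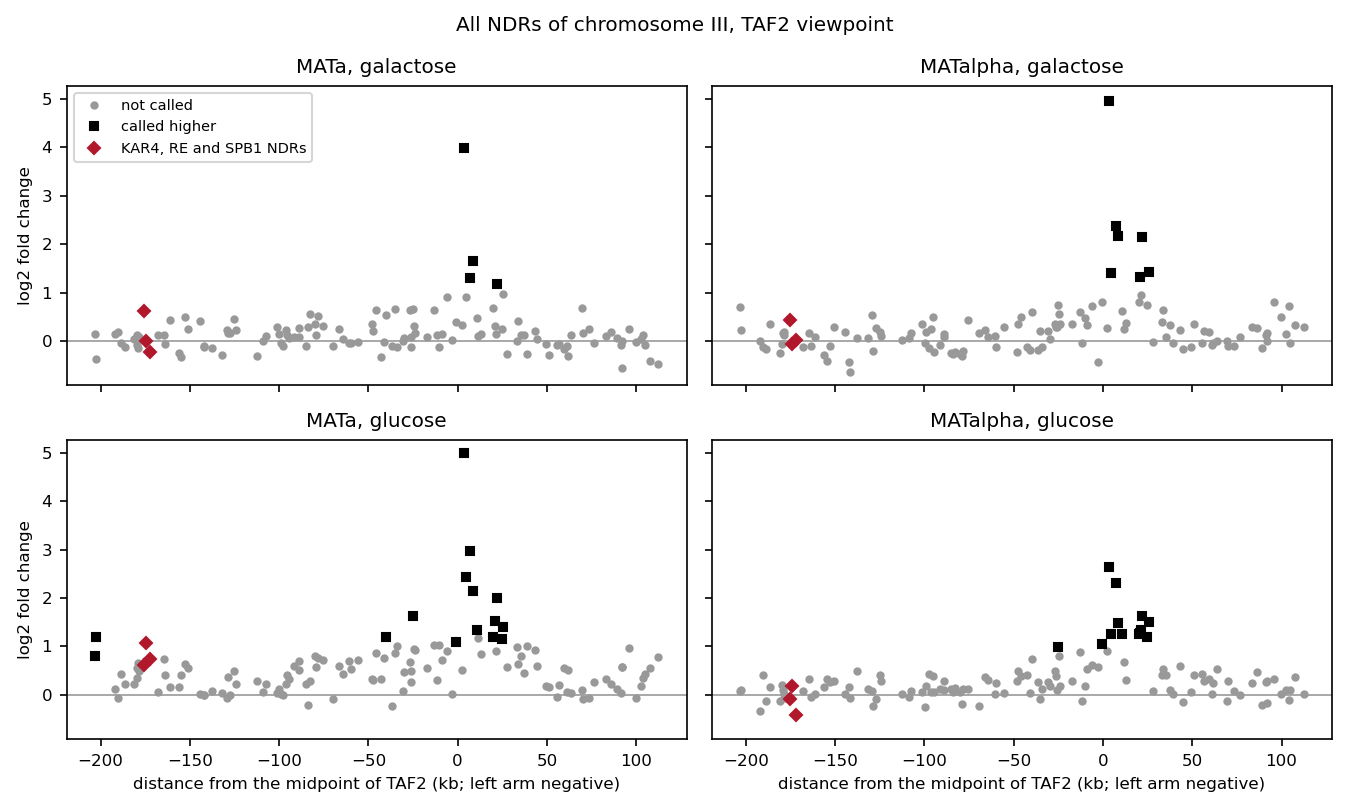
Log2 fold change (y axis) of all NDRs of chromosome III by distance in kb from the midpoint of TAF2 (x axis, left arm negative), in galactose (top) and glucose (bottom), MATa on the left; squares are called NDRs and diamonds the KAR4, RE and SPB1 NDRs. In MATa in glucose the RE NDR stands at 1.06, at 174 kb, and the called NDRs around the viewpoint reach 4.99.

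Among NDRs that were like the RE NDR in 1 respect, the share called in MATa in glucose ran from 0% to 4.17%, beside 0.726% of all NDRs. On the other chromosomes, none of the 203 NDRs at 20 to 40 kb from a chromosome end was called (3 at an unadjusted p under 0.05 by the normal test on DESeq2 values), and their median was 0.00. Nearer to an end than the RE NDR, under 10 kb, 12 of 85 were called (14.1%), with a median of 0.12 and 3 values above that of the RE NDR. Lengths were known only for the 1998 NDRs whose ends were at hand. Among these, 60 others had at least 500 bases, with a median of 0.06. Of the 60, 1 was called (1.67%) and 1 exceeded the RE NDR. The called NDR lies on chromosome III itself, beside PMP1, at 1.20. Of 527 NDRs with a base mean within a factor of 2 of that of the RE NDR, 22 were called (4.17%) and 12 exceeded it. This set includes NDRs within 30 kb of TAF2, such as those beside ARE1 (2.14) and TVS1 (2.01). The share of all NDRs called also includes that stretch, where 12 of 30 NDRs were called. On the other chromosomes 19 of 4693 were called.

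From the VPs on other chromosomes the RE NDR was called in none of the 17 tables, with 1 unadjusted p under 0.05, at LSM4. Its log2 fold changes ran from -0.49 ± 0.23 at LSM4 to 0.38 ± 0.39 at YBP2 with 8 copies at 1 h, with a median of -0.11, and 11 were negative. The KAR4 NDR ran from -0.80 ± 0.29 at VHR1 (adjusted p 0.132 by the same test) to 0.11 ± 0.33 at YBP2 with 16 copies. It was negative in 14 tables, among them all 11 at 2 h of YBP2 to MNR2, whose controls appear to be shared since their control levels correlate at 0.997 or more. The SPB1 NDR ran from -0.37 to 0.35. None of the members was called in the background set. The share of all NDRs called there was 3.02% for CDC43, 4.72% for LHS1, 5.65% for LSM4, 1.16% for MBR1, 0.352% for MNR2, 0.414% for OLE1, 0.787% for PCL10, 0.787% for PUS2, 5.28% for SHC1, 1.82% for VHR1 and 3.04% for YBP2 at 2 h. It was 0.394% for TRP2 with methionine and 0.249% without, and 0.228%, 0.476%, 0.29% and 7.75% for YBP2 at 1 h with 4, 8, 16 and 256 copies. These shares count calls in both directions: YBP2 with 256 copies at 1 h had 219 NDRs higher and 155 lower, LSM4 204 higher and 69 lower, YBP2 with 8 copies 2 higher and 21 lower, and TRP2 with methionine 6 higher and 13 lower. In the 4 tables of TAF2 all calls were higher.

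Set against these tables one at a time, the log2 fold change of the RE NDR in MATa in glucose was higher in 17 of 17, by 0.68 to 1.55. The difference passed an adjusted p of 0.05 (normal test on DESeq2 values, over all NDRs of each pair) in 8 of them, namely CDC43, LSM4, OLE1, PCL10, PUS2, SHC1 and YBP2 at 2 h and YBP2 with 256 copies at 1 h. Over all NDRs and pairs 1.88% passed. The largest was 1.55 ± 0.33 against LSM4 (adjusted p 0.000448), and the smallest, 0.68 ± 0.46 against YBP2 with 8 copies, had an interval of -0.23 to 1.58. With a running median over base mean subtracted from each table, 14 of 17 passed. Without this subtraction the RE NDR had an unadjusted p under 0.05 in 16 of 17. The KAR4 NDR passed in 0 of 17, with 10 at an unadjusted p under 0.05, and the SPB1 NDR in 0 of 17, with 3, by the same test. Which pairs pass also depends on the other NDRs of the pair. TRP2 without methionine missed at an unadjusted p of 0.00034, while YBP2 with 256 copies at 1 h passed at 0.000726 (normal test on DESeq2 values). All 17 differences share the MATa table. Those that passed at 2 h are also among the 11 whose controls appear to be shared, so the passes are not independent. The sets also differ in the HO construct and in strain, so the VP and these features cannot be told apart in them.

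**Figure D5:**
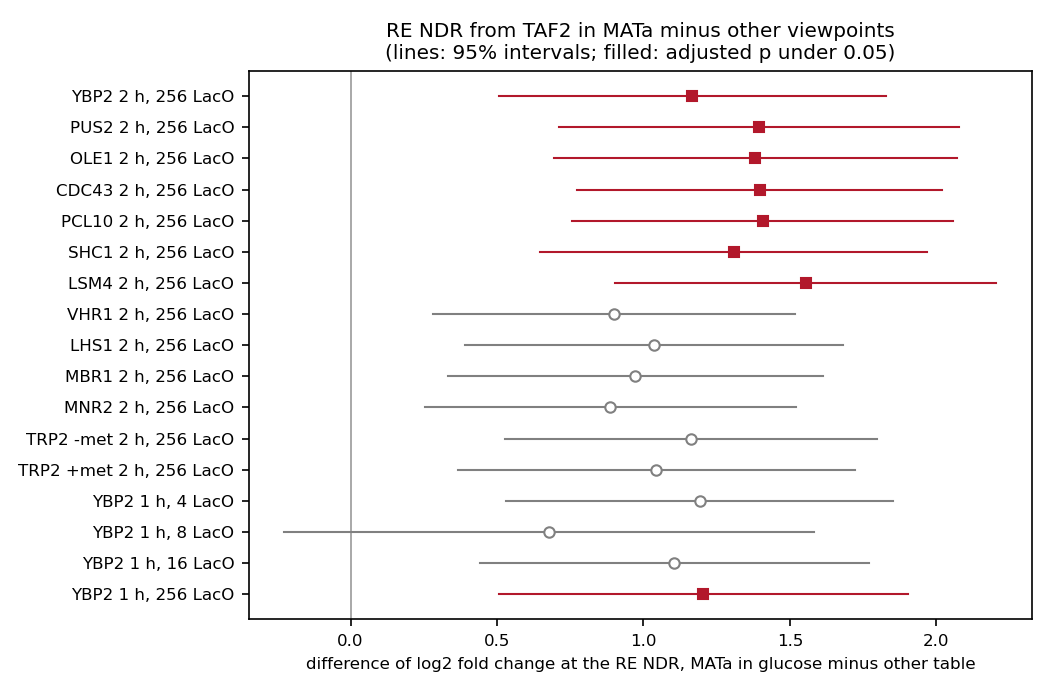
Difference of the log2 fold change at the RE NDR, MATa in glucose from TAF2 minus each of 17 tables of other viewpoints (rows), with 95% intervals; filled red squares passed an adjusted p of 0.05. All points lie above 0, from 0.68 to 1.55, and 8 are filled.

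Over the 21 tables, some distant NDRs correlated more closely with the RE NDR than the KAR4 NDR did. They were picked as the highest of 4820 NDRs, so this comparison could hardly have come out otherwise. As a description, with points that share control libraries, Pearson's r across tables was 0.75 for the SPB1 NDR and 0.35 for the KAR4 NDR, and 0.45 and -0.01 without MATa in glucose. On chromosome III the highest r was 0.85, at APA1, 9.89 kb from the RE. Off chromosome III the 5 highest were 0.89 at an NDR of chromosome XV with no gene start within 1 kb, 0.84 at MYO4 and FRT2, 0.84 at MFA2, 0.83 at ERG25 and 0.83 at an NDR of chromosome IX with no gene start nearby. Without MATa in glucose these were 0.73, 0.69, 0.62, 0.77 and 0.57, in the same order, and none stayed among the 5 highest. MYO4 encodes a myosin motor, MFA2 the precursor of the pheromone a-factor and ERG25 an enzyme of ergosterol synthesis.

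No NDR that starts within 1 kb of the start of a listed gene of the switching and mating pathways was called from TAF2, but 1 at the far end of BAR1 was. Of all NDRs, 0.124% in MATa and 0.228% in MATα were called in galactose. In glucose it was 0.726% in MATa and 0.269% in MATα. With 38 listed NDRs, 0 calls is near these shares and is no result about these genes. The 13 NDRs beside genes of donor preference and switching (FKH1, FKH2, MCM1, SWI4, SWI6, YKU70, YKU80, HO, SIR2, SIR3 and SIR4) had medians of -0.10 in MATa and -0.01 in MATα in galactose, and -0.02 in MATa and -0.04 in MATα in glucose, with 0 called in each table by the normal test on DESeq2 values. At an unadjusted p under 0.05 there were 2 in MATa and 0 in MATα in galactose, and 0 in MATa and 1 in MATα in glucose. Of the 8 NDRs beside a-specific genes, 0 were called in the 4 tables. In MATa in glucose their median was 0.07 with 4 of 8 positive, and the highest was 0.79 ± 0.35 at an NDR of MFA2 with a base mean of 6.88, the 1 NDR of this list with an unadjusted p under 0.05 (normal test on DESeq2 values). The other NDR of MFA2 had -0.16 ± 0.36, those of MFA1, the other a-factor gene, 0.17 and -0.27, and the NDR at the start of BAR1 -0.02. The 4 NDRs of the mating loci, the 6 of karyogamy genes and the 7 of condensin genes also held 0 calls in the 4 tables, with 1, 0 and 1 values at an unadjusted p under 0.05 over these tables, and medians of 0.03, -0.19 and -0.12 in MATa in glucose, beside -0.01 for all NDRs. These counts are in either direction. In the reference the α genes lie at both HML and MAT, so reads at the NDRs between them may not be told apart. Control levels in glucose at the HML and MAT NDRs were 16.1 and 11.5 RPM in MATa, and 78.0 and 72.7 in MATα. Over all NDRs, those with an unadjusted p under 0.05 in either direction numbered 128 (2.65%) in MATa and 84 (1.74%) in MATα in galactose, and 198 (4.11%) in MATa and 33 (0.684%) in MATα in glucose.

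The NDR at the far end of BAR1, which encodes a protease that degrades the pheromone α-factor, falls outside the 1 kb rule and was chosen after its values were seen. BAR1 spans chrIX:322342-324105, and this NDR begins 65 bases before its end. Its log2 fold change in MATa in glucose was 1.22 ± 0.31, with an adjusted p of 0.0139 (normal test on DESeq2 values), and it ranked 11 from the top of the table, above the RE NDR. Levels there were 433 RPM in the targeted strain and 187 in the control. The log2 fold change was 0.35 ± 0.25 in MATa and 0.22 ± 0.31 in MATα in galactose, and -0.30 ± 0.31 in MATα in glucose, and was not called there. Of the 5 NDRs that start inside a listed gene but over 1 kb from its start, the only other called one lies in TAF2 itself, at 1.09 ± 0.30 in MATa and 1.04 ± 0.27 in MATα in glucose.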

How the data were processed

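The labels hold 66 MeDIP libraries, 2 for each of 33 conditions. By the study's methods and the submitters' processing notes, fastp 0.23.2 removed poor reads, BWA 0.7.17 aligned the rest to sacCer3, and Picard took out duplicates. Reads on NDRs came from featureCounts 2.0.3 (Subread), where a read over several NDRs counted for each, and the authors compared strains with DESeq2 1.38.0. The base mean that the authors deposited is a signal, the average of the 4 libraries of a table after size factors. The deposited log2 fold change, targeted over control, and its SE are on the log2 scale. SEs stay small at low base means (0.25 at 3.07 for the SPB1 NDR), as in estimates moved toward 0 by a prior, so differences may be of shrunken values. The deposited p-values, Wald statistics and adjusted p are the authors' own results and were not used. The fold changes are also theirs, and nothing else in the tables holds the comparison.

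Depth is given by base means: their sum over NDRs was 168457 to 477468 per table, and the median NDR had 15.8 to 49.5 reads, with a median SE of 0.22 to 0.45. No value per library is in the tables, so precision rests on the deposited SE. NDRs without an SE were left out. Each log2 fold change over its SE gave a two-sided normal p, with Benjamini-Hochberg adjustment across the table (statsmodels 0.14.6, scipy 1.17.1, numpy 2.4.6, pandas 2.3.3, Python 3.11.15; matplotlib 3.10.9 for plots). Calls needed a log2 fold change beyond 0.7 and an adjusted p under 0.05. The study used these cutoffs for higher values, and here they were applied in both directions. The SE of a difference was the square root of the sum of squared SEs. Control and targeted levels were solved from base mean B and log2 fold change L (control 2B / (1 + 2 to the power L)) and scaled to 1000000 reads in NDRs by each group's own total. They are approximate, and a ratio of such levels can differ from the deposited fold change. The scripts were tested on simulated data. A gene was assigned to each NDR that starts within 1 kb of the gene's start. No NDR lay near the starts of HMRA2, STE2 or BIK1. Intervals are 95%.

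The NDRs, gene lists and the rule for named NDRs (the members, NDRs within 20 kb, called NDRs of the left arm, NDRs beside listed genes and the 5 most alike off chromosome III) were chosen with earlier results of these data known. Alternatives were another fold cutoff, a base mean of at least 10, only NDRs beyond 30 kb of the VP, centring, and a running median over base mean (201 NDRs) subtracted.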

Additional observations from a re-analysis of the deposited data

Results flagged for a closer look

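The RE NDR differed between the MATa strain with LacO at TAF2 and strains with other VPs by a test of the difference itself, in 8 of 17 pairs. Its log2 fold change in MATa in glucose from TAF2 was above that from YBP2 by 1.17, from PUS2 by 1.39, from OLE1 by 1.382, from CDC43 by 1.40, from PCL10 by 1.41, from SHC1 by 1.31 and from LSM4 by 1.55 at 2 h, and above that from YBP2 with 256 copies at 1 h by 1.204 (normal test on DESeq2 values, adjusted p 0.000448 to 0.0341). It was higher in 17 of 17 pairs. All share 1 MATa table, and those named at 2 h also appear to share their controls, so the passes are not independent. The strains of each pair also differ in the HO construct, so the VP cannot be told apart from such features. No group had over 2 libraries, so no library could be looked at for standing apart.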

How the results depend on the processing

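The call of the RE NDR in MATa in glucose held under all 6 alternatives run, and its direction and that of the called values did not turn. The KAR4 NDR kept its side of the threshold in 126 of 126 alternatives over the 21 tables, the SPB1 NDR in 122 of 122 and the RE NDR in 125 of 126. The exception was LSM4, where the RE NDR was called lower at -0.76 (adjusted p 0.0348, normal test on DESeq2 values) with the running median subtracted. With only NDRs beyond 30 kb of the VP, calls numbered 19 in MATa and 0 in MATα in glucose, and 0 in MATa and 3 in MATα in galactose, since local NDRs are left out. With the running median subtracted, 54 NDRs were called in MATa in glucose, against 35, and passing NDRs were 35 for galactose minus glucose in MATa, against 15, 11 for the change of the mating type difference, against 7, and 3 for MATa minus MATα in galactose, against 1. The last was 2 with a base mean of at least 10. The RE NDR passed in 14 of 17 tables with the running median, against 8. The cause was not tested. The list of the 5 most alike NDRs kept 1 with Spearman's correlation and 0 without MATa in glucose. With NDRs inside the bodies of listed genes added, an alternative chosen after seeing the data, the gene lists held 2 called NDRs in MATa and 1 in MATα in glucose, against 0 each, since BAR1 and TAF2 gain an NDR. No paired analysis was possible because the tables hold no value per library, and for the same reason no library could be left out. Depth limits the SPB1 NDR most, with a base mean of 3.07 to 19.6.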
